A study of Mus musculus with 8 samples.

Results

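The 9 genes described here encode PD-1 (Pdcd1) with its ligands PD-L1 (Cd274) and PD-L2 (Pdcd1lg2), the inhibitory receptors LAG-3 (Lag3), TIM-3 (Havcr2) and TIGIT (Tigit) with the activating counterpart DNAM-1 (Cd226), and BTLA (Btla) with its ligand HVEM (Tnfrsf14). They were taken by name and were 9 of 32285 genes in the expression tables. In the RefSeq annotation Pdcd1 is on chromosome 1, Cd274 and Pdcd1lg2 on 19, Lag3 on 6, Havcr2 on 11, Tigit and Btla on 16 and Tnfrsf14 on 4. UMIs, that is unique molecules read per gene and cell, were followed across T cell subsets, B cells and dendritic cells (DC) of deep cervical lymph nodes, which drain the brain. All mice were C57BL/6, and nodes were taken on day 20. Mice of the saline control library were given DPBS into the brain. Wild-type mice that carried GL261, a mouse glioma line, in the brain received isotype IgG (isotype library) or an antibody that blocks the checkpoint receptor CTLA-4 (anti-CTLA-4 library). Glioma-bearing mice given anti-CD20, which removes B cells, received the same 2 antibodies and made up the B-depleted isotype and B-depleted anti-CTLA-4 libraries. Values for 5 libraries are listed below in this order, called library order. Each group was 1 library, so no difference was tested and no value has a replicate check. The sources used here do not say how many mice made up a library, nor whether saline control mice received isotype IgG.

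Inhibitory checkpoints are receptors that antigen-stimulated lymphocytes place on their surface and that dampen further signalling when they meet a ligand on a neighbouring cell. PD-1 marks recently stimulated and follicular helper T cells and binds PD-L1, which many cells make under interferon, and PD-L2, whose expression is narrower. TIGIT and DNAM-1 compete for the same ligands with opposite effects, and BTLA binds HVEM, a member of the TNF receptor family.

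The 5 libraries held 54715065 to 63497466 UMIs, and 8300 to 10591 cells per library were kept, 45115 in all, with median depths of 4257 to 6017.5 UMIs per cell. The isotype library had the lowest median mitochondrial share, 1.00%, against 1.77% to 2.09% in the others. It enters 3 of the 5 comparisons, and its part in the results was not tested. Across libraries 1067 barcode sequences occurred more than once, which concerned 2145 kept cells. Follicular B-like cells numbered 4009, 4189 and 4528 in the 3 libraries with B cells and 9 and 15 in the B-depleted ones. The 21 named classes used here came from clusters made without the 9 genes, none of which was a marker, and the suffix "-like" marks a name given from marker genes. CPM below is UMIs of a gene per 1000000 UMIs of the class. It compares classes and libraries for 1 gene and not 1 gene with another, and in sums over a class fewer positive cells and less RNA per cell cannot be told apart.

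For the receptors and ligands that the results turn on, the 250 bases before the transcription start are shown, from RefSeq on build GRCm38.p6. They are the windows of PD-1 (chr1:94052554-94052803, minus strand), TIGIT (chr16:43664185-43664434, minus strand), PD-L1 (chr19:29367188-29367437, plus strand) and PD-L2 (chr19:29410669-29410918, plus strand), read 5′ to 3′. Capitals mark any match to the 6 motifs searched on both strands.
Pdcd1: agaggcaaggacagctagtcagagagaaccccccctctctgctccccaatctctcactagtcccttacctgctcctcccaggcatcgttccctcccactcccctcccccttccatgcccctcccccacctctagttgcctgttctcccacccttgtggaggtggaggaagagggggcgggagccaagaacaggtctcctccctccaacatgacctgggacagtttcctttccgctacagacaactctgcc
Tigit: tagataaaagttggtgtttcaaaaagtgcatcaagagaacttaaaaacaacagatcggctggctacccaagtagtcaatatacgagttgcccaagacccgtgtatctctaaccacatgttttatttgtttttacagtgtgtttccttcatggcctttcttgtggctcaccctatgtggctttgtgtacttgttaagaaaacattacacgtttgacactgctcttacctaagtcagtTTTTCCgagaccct
Cd274: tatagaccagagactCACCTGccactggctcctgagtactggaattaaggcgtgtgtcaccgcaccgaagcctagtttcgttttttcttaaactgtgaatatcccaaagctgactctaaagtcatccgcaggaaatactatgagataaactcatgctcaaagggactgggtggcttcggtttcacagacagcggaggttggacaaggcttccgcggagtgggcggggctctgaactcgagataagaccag
Pdcd1lg2: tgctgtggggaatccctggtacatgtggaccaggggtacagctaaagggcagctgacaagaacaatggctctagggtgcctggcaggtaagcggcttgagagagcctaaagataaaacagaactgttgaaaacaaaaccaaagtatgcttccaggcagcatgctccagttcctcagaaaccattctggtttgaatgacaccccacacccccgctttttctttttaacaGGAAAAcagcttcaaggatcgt
The Cd274 and Tigit windows lie before the start used in the table, which is inside the annotated span of each gene (chr19:29362107-29388095 and chr16:43626137-43665125). The motifs were the gamma-activated site TTCNNNGAA, held by 7.02% of the 32851 windows in the table, the interferon-stimulated response element (GAAA, any 2 bases, GAAA) in 2.98%, AP-1 TGANTCA in 6.75%, the NFAT core GGAAAA in 20.4%, NF-kappaB (GGG, any 3 bases, TTCC) in 4.65% and the E-box CAGGTG in 17.2%. The Tigit and Pdcd1lg2 windows each held 1 NFAT core, from 14 to 9 and from 22 to 17 bases before the start. The Cd274 window held 1 E-box and the Pdcd1 window none of the 6 motifs. The Tnfrsf14 window, not shown, held 1 interferon-stimulated response element and 2 NFAT cores. Windows were used for 7 of the 9 genes, and Lag3 and Cd226 are named only. A match is a run of letters and not a shown binding site.

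**Figure D1:**
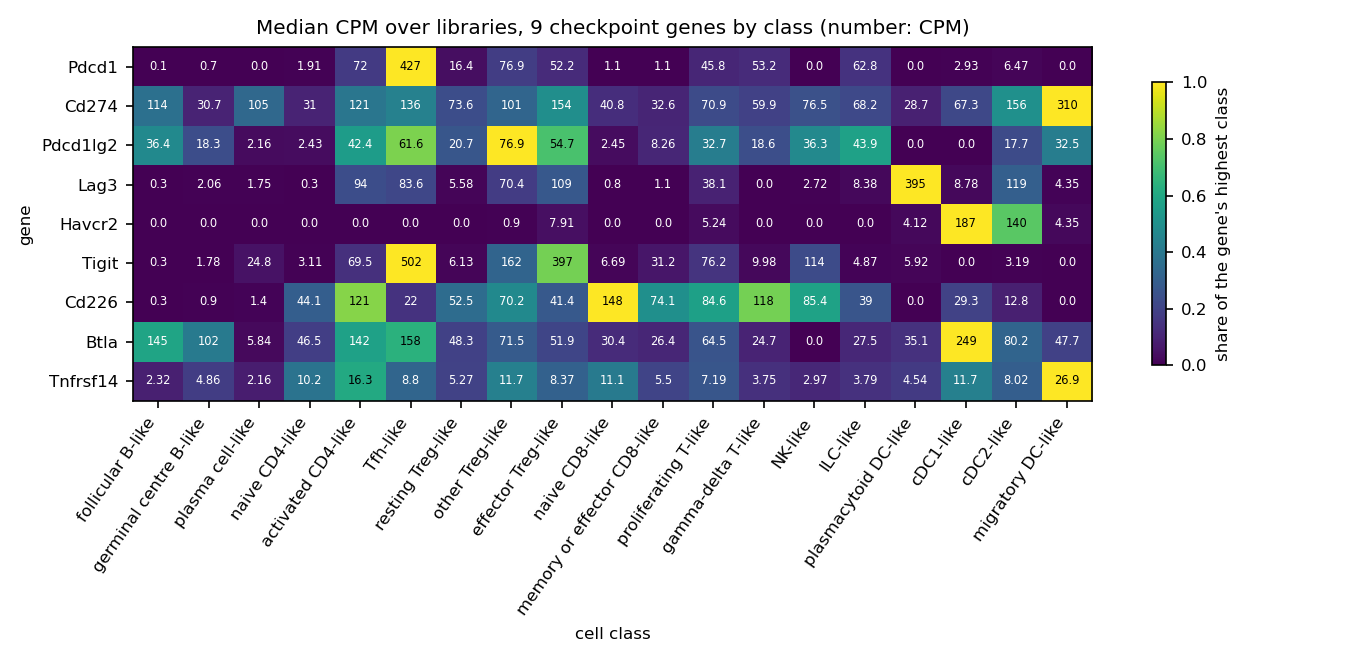
Heat map of the 9 genes (rows) in 19 cell classes (columns). Numbers are the median CPM over the libraries with at least 50 cells of the class, or at least 20 where no library had 50, and colour is the share of the gene's own highest class. Lag3 peaked at 395 CPM in plasmacytoid DC, Havcr2 in conventional DC, Pdcd1 and Tigit in Tfh-like cells, and Cd226 in naive CD8 cells. The Tfh-like column is the anti-CTLA-4 library alone and the cDC1-like column the B-depleted isotype library alone. Effector Treg-like, cDC2-like and migratory DC-like columns are the B-depleted libraries only, and the follicular B-like column the libraries with B cells only. For germinal centre B-like cells only the isotype and anti-CTLA-4 libraries enter, as for plasma cell-like cells. NK-like and proliferating T-like columns leave out the saline control. Differences between such columns mix class with library. Gzmk-led CD8 cells and monocyte or macrophage-like cells are not shown, since no library had 20 of them.

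Pdcd1, the receptor PD-1, had its highest level over all libraries in Tfh-like cells, the follicular helpers that assist germinal centres. Tfh-like cells gave 227, 384, 427, 258 and 272 CPM in library order, from 16, 13, 39, 10 and 15 cells. Every library was above its own activated CD4-like cells. The anti-CTLA-4 library was highest (346 to 521, a 95% Poisson interval for counting error) and the saline control lowest (135 to 360), and these intervals overlapped. Over all libraries 64.5% of Tfh-like cells had a Pdcd1 UMI, against 0.0235% of follicular B-like cells, a class that should lack it. With each cell thinned to 3000 UMIs the shares were 53.6% and 0.0101%. Naive CD4-like and naive CD8-like cells were far lower, at 1.97 and 1.20 CPM.

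Below the Tfh-like cells, Pdcd1 was found in Treg-like and activated CD4-like cells, and also in gamma-delta T-like, innate lymphoid (ILC-like) and proliferating T-like cells. Treg-like cells outside the resting and effector clusters, called other Treg-like here, gave 134, 62.3, 94.6, 76.9 and 69.8 CPM in library order. Activated CD4-like cells gave 115, 121, 69.5, 54.0 and 72.0 CPM in the same order. The saline control was the high library in other Treg-like cells, and the saline control and isotype libraries were high in activated CD4-like cells. Gamma-delta T-like cells gave 47.1, 24.7, 270, 53.2 and 60.1 CPM in library order, from 22 to 40 cells each. ILC-like cells gave 30.7 to 92.6 CPM and proliferating T-like cells 33.9 to 60.3 CPM over the libraries. A small cluster of CD8 cells led by Gzmk, 57 cells in all, held 225 CPM of Pdcd1, 358 of Tigit, 160 of Lag3 and 33.4 of Havcr2. Pdcd1 in this cluster was 533, 261, 273, 119 and 91.4 CPM in library order, from 11, 7, 17, 10 and 12 cells, so in the saline control library it was above the Tfh-like cells (371 to 741 against 135 to 360). Its Havcr2 rested on 10 UMIs in the saline control library and 1 or 2 in each other library.

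Within CD4 cells the receptors did not move as a block. The largest activated CD4-like cluster, 191 cells led by Penk, the gene of the opioid precursor proenkephalin, had 184 CPM of Pdcd1, 230 of Lag3, 232 of Cd226 and 246 of Btla, but 15.5 of Tigit. Tfh-like cells had the reverse for the competing pair, with 645 CPM of Tigit and 19.8 of Cd226. The activated CD4-like class pools the Penk-led cluster with others, so counts of its single cells are not separate from these cluster levels. Tigit and Cd226 were found together in 32 of 699 cells, where 45.4 would be met if they were independent within each library, and the count was below that number in each of the 5 libraries. In other Treg-like cells this pair was together in 144 cells against 146, and in memory or effector CD8-like cells in 140 against 170. In contrast, in the activated CD4-like class Pdcd1lg2 and Lag3 were found together in 66 cells against 38.5 under independence. The count was above that number in each of the 5 libraries, and Pdcd1 and Lag3 were together in 63 cells against 46.6. Cells with more UMIs show more of every gene, so the excess pairs carry depth with them, and the part of depth was not tested.

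Lag3, a receptor of MHC class II, was highest outside T cells. Plasmacytoid DC-like cells, the interferon-producing DC, gave 388, 331, 437, 402 and 395 CPM in library order, from 21 to 32 cells each. The libraries lay close together, and 91.6% of the cells had a Lag3 UMI, against 0.118% of follicular B-like cells. Thinned to 3000 UMIs the shares were 61.5% and 0.071%. The plasmacytoid cells were the deeper of the 2 classes, with library medians of 9405 to 11161 UMIs per cell against 3430 to 5981. T cell markers in plasmacytoid DC-like cells summed to 0 to 199 CPM over the libraries, and their part in the Lag3 level was not tested.

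Among T cells, Lag3 was found in Tfh-like cells at 169 CPM, effector Treg-like at 114, activated CD4-like at 83.7 and other Treg-like at 71.0 over all libraries. Naive CD4-like cells were at 0.389 CPM. Levels in the rarer classes depended on few cells. In Tfh-like cells of the isotype library 28 of 45 Lag3 UMIs came from 1 cell, and the saline control library had none in 16 cells, which allows up to 37.9 CPM at 3 counts. In effector Treg-like cells of the isotype library 18 of 41 UMIs came from 1 cell.

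Havcr2, the receptor TIM-3, was high in conventional DC-like cells and in a few monocyte or macrophage-like cells. cDC2-like cells gave 204, 114, 189, 134 and 146 CPM in library order, from 14 to 31 cells, and cDC1-like cells gave 194, 109, 46.5, 187 and 95.6 CPM from 8 to 21 cells. In cDC2-like cells the intervals of all libraries overlapped, and in cDC1-like cells those of the B-depleted anti-CTLA-4 library lay below those of the saline control and B-depleted isotype libraries. Monocyte or macrophage-like cells gave 506, 85.0, 110, 58.6 and 58.6 CPM, from 6, 3, 3, 5 and 2 UMIs in 1, 4, 4, 11 and 4 cells. Monocyte and macrophage markers summed to 277 to 1510 CPM over the libraries in cDC1-like and to 364 to 2031 in cDC2-like cells, and their part in the Havcr2 level was not tested. Follicular B-like, naive CD4-like and naive CD8-like cells held 1, 2 and 2 Havcr2 UMIs in 12750, 10659 and 11089 cells. Effector Treg-like cells, at 8.85 CPM, rested on 12 UMIs. The gene had too few UMIs for a ratio in any class compared.

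Tigit was a gene of Tfh-like and effector Treg-like cells. Effector Treg-like cells gave 419, 686, 421, 310 and 485 CPM in library order. The isotype library was highest, and there 39 of 132 UMIs came from 1 cell. Tfh-like cells gave 278, 882, 502, 597 and 955 CPM in that order. NK-like cells were at 124 CPM, other Treg-like cells at 147, and naive CD4-like cells at 2.83.

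Cd226, the activating rival of TIGIT, followed another order. Naive CD8-like cells gave 135, 139, 151, 153 and 148 CPM in library order, and 53.5% of them had a UMI (33.2% after thinning). The libraries lay within a narrow range. Activated CD4-like cells followed at 124 CPM and gamma-delta T-like cells at 121, and follicular B-like cells were at 0.431. Memory or effector CD8-like cells had 75.5 CPM of Cd226, below the naive ones in each library, and 32.8 of Tigit against 6.77 in naive cells.

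Cd274, the ligand PD-L1, was widely expressed, and the highest level was in migratory DC-like cells, which carry antigen to the node. They gave 126, 217, 409, 359 and 261 CPM in library order, from 32, 27, 47, 54 and 68 cells. The saline control was lowest and its interval (86.3 to 178) reached only into that of the isotype library. B cell genes moved among these cells as well: Cd79a was at 240 CPM in the isotype library, 29.4 in the anti-CTLA-4 and 3.94 or less in the others, and its part was not tested. Effector Treg-like cells held 162 CPM of Cd274 and activated CD4-like cells 123. Follicular B-like cells were the largest source by UMIs, 6232 of 17968, at 122 CPM. Germinal centre B-like cells, which mature the antibody response, had 33.8 CPM.

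Pdcd1lg2, the ligand PD-L2, was highest in a T cell class. Other Treg-like cells gave 81.4, 70.02, 95.8, 62.1 and 76.9 CPM in library order, and 29.1% of them had a UMI, 20.6% after thinning. Naive CD8-like and naive CD4-like cells of the same libraries were at 2.60 and 2.43 CPM, with UMIs in 1.61% and 1.22% of cells. Activated CD4-like cells were at 51.7 CPM and follicular B-like cells at 35.9. The median over the B-depleted libraries, the only ones with at least 50 migratory DC-like cells, was 32.5 CPM in that class. Follicular B-like cells numbered only 9 and 15 in those libraries.

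Btla, the inhibitory receptor of HVEM, was shared by B cells, CD4 cells and conventional DC. Follicular B-like cells gave 145, 140 and 159 CPM in the first 3 libraries, and activated CD4-like cells 141, 142, 168, 127 and 178 CPM in library order. Naive CD8-like cells were at 27.1 to 34.0 CPM. NK-like cells had 0 UMIs in 255 cells. cDC1-like cells had 166 CPM. Tnfrsf14, the ligand HVEM, was low throughout, from 2.39 CPM in follicular B-like cells to 25.2 in migratory DC-like cells, with 11.6 in naive CD8-like and 9.93 in naive CD4-like cells. Migratory DC-like cells gave 23.7, 23.3, 22.0, 22.6 and 31.2 CPM, a narrow range for 47 UMIs in all.

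Some members shared a pattern across 47 class-by-library sums from 12 classes with at least 50 cells. Log2(CPM + 1) of Pdcd1 and Lag3 had a Pearson r of 0.89, of Cd274 and Pdcd1lg2 0.75, and of Tigit and Btla -0.26. The gene most like Pdcd1 was Ptpn13 (r = 0.95), the gene most like Lag3 was Hif1a (0.91), and the gene most like Cd274 was Dapp1 (0.90). Pdcd1lg2 was nearest to Eea1 (0.93), Tigit to Il12rb1 (0.90), Cd226 to Lck (0.95), Btla to St6gal1 (0.93) and Tnfrsf14 to Ramp3 (0.82). These are descriptions over 9542 genes screened. The points share libraries and depth, and sums of 1 class in 5 libraries are not independent.

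Differences between libraries were read as ratios of CPM in classes with at least 50 cells on both sides, for genes with at least 30 UMIs over both, and a ratio of at least 1.5 or its inverse was counted. The interval beside each is a 95% counting interval and covers counting error only. Fewer of all genes passed this fold where more UMIs were required, so counts are also given for at least 100 UMIs. At a fold of 2 the pairs of the 9 genes that passed were 3, 3, 5, 3 and 1 in the order of the comparisons below, against 1.4%, 2.35%, 2.35%, 1.76% and 1.42% of the pairs of all genes. The comparisons share libraries: the isotype library is in 3 of them and 3 other libraries are in 2 each, so their values are not independent of each other.

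**Figure D2:**
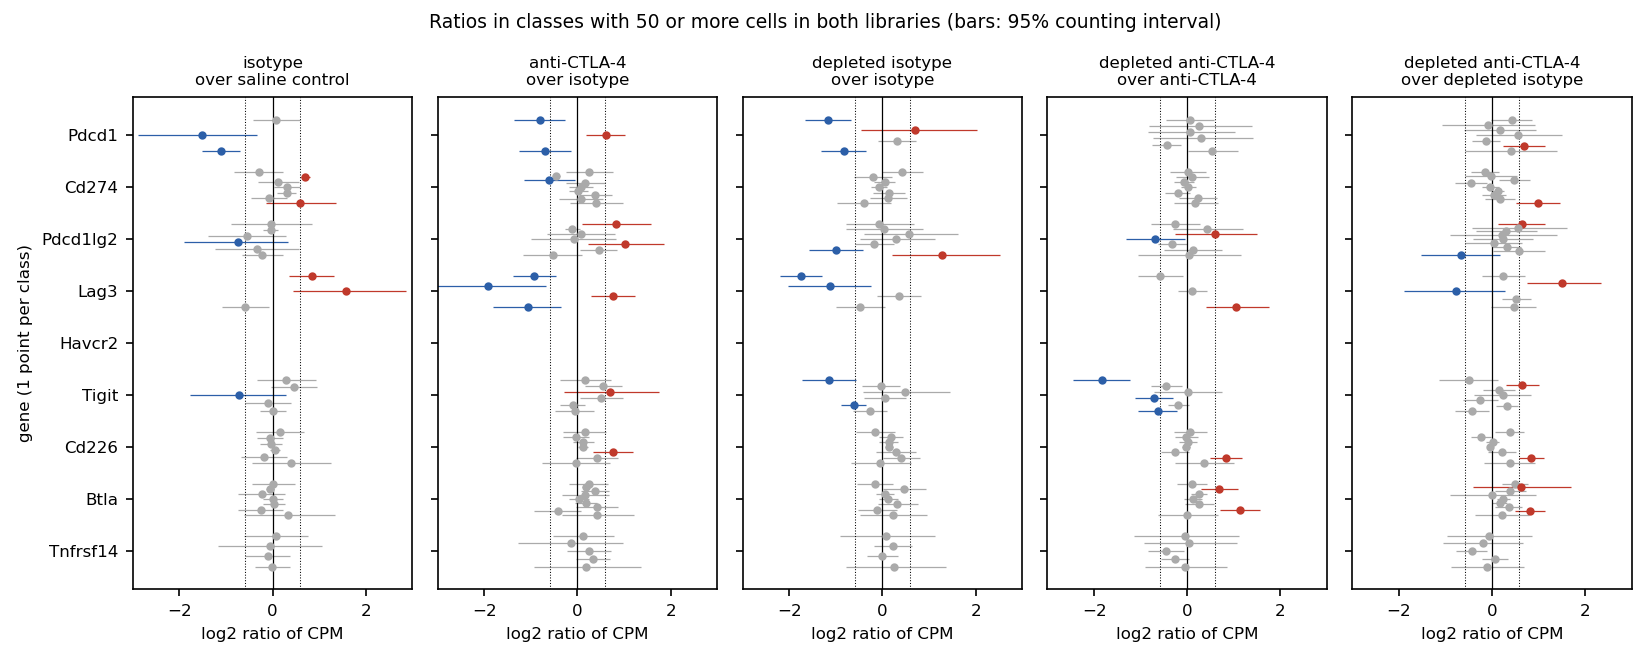
Log2 ratio of CPM for each gene in each class compared, in 5 panels, 1 per comparison. A point is 1 class, bars are 95% counting intervals, dotted lines mark a fold of 1.5, red points are at or above it and blue points at or below its inverse. Tnfrsf14 and most Cd226 and Btla points lie inside the lines, and Havcr2 has none because its UMIs were too few.

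Between glioma and saline nodes, the isotype library had more PD-L1 in follicular B-like cells and less PD-1 in other Treg-like cells. Of 41 gene and class pairs, 4 were higher and 4 lower by the fold, while 7.82% of the pairs of all genes passed it (3.45% higher, 4.37% lower). At 100 UMIs it was 2 higher and 1 lower of 28, against 2.39% of all pairs (0.952% higher, 1.44% lower). Cd274 in follicular B-like cells was 156 CPM in the isotype and 95.9 in the saline control library, 1.63 times (1.53 to 1.73). The ratio was above 1 in each of the 10 follicular B clusters, from 1.21 to 2.501. Egr1, an immediate early gene of antigen receptor signalling, moved the same way, at 263 against 146 CPM, and a cluster led by Egr1 was 16.7% of follicular B-like cells against 11.7%. Another cluster led by Egr1 went the other way, at 3.99% against 5.76%. The part of Egr1 was not tested. Fos was 275 against 303 CPM, so not all early genes moved this way. Of the 6 tested interferon genes that induce PD-L1, none passed the fold in follicular B-like cells, with Irf1 at 1.14 times. Pdcd1lg2 in the same cells was 0.970 times (0.867 to 1.09).

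Among T cells of the same pair, Pdcd1 in other Treg-like cells was 62.3 CPM in the isotype and 134 in the saline control library, 0.467 times (0.350 to 0.617). Their Foxp3, the Treg factor, was 332 and 304 CPM. Lag3 in activated CD4-like cells was 179 against 99.98 CPM, 1.79 times (1.28 to 2.503), while Pdcd1 there was 121 and 115. The share of these cells with a Lag3 UMI differed less, at 32.6% and 28.9%, with at most 13 and 7 UMIs in 1 cell. In all conventional CD4 cells Lag3 was 2.70 times and Tigit 2.09 times the saline level. Naive, activated and Tfh-like cells were 1397, 92 and 13 in the isotype and 1523, 97 and 16 in the saline control library, and the part of this mix was not tested. Of the 153 isotype Lag3 UMIs 28 came from 1 Tfh-like cell, as given above. The other calls were of low levels or few UMIs: in naive CD4-like cells Pdcd1 was 0.348 times, Pdcd1lg2 0.594 times and Tigit 0.610 times, and in naive CD8-like cells Lag3 was 2.99 times. Cd274 in resting Treg-like cells was 1.501 times, with an interval that included 1 (0.901 to 2.56).

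**Figure D3:**
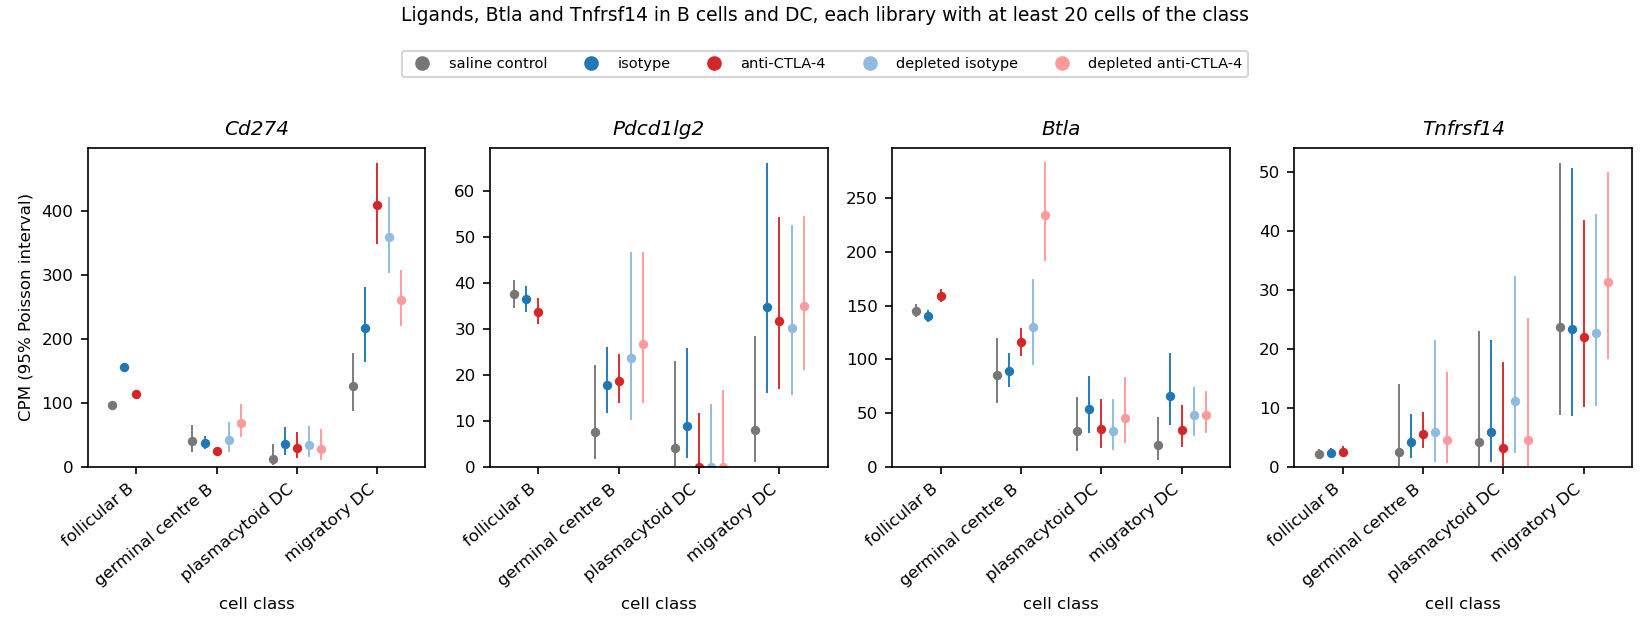
CPM of Cd274, Pdcd1lg2, Btla and Tnfrsf14 in 4 B cell and DC classes, each library with at least 20 cells of the class (colours), with 95% Poisson intervals. Follicular B-like Cd274 is highest in the isotype library, at 156 CPM, and migratory DC-like Cd274 ranges from 126 to 409.

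With B cells present, the anti-CTLA-4 library had lower PD-L1 in germinal centre B-like cells and higher PD-1 and Lag3 in other Treg-like cells than the isotype library. Of 50 pairs 6 were higher and 6 lower, against 10% of all pairs (6.3% higher, 3.74% lower). At 100 UMIs 3 were higher and 4 lower of 37, against 4.32% (2.87% and 1.45%). Cd274 in follicular B-like cells was 114 CPM against 156, a ratio of 0.730 that did not pass the fold. It was below 1 in each of 10 follicular B clusters, from 0.508 to 0.934, and Egr1 was 143 against 263 CPM. Germinal centre B-like cells had 24.3 CPM of Cd274 against 37.0, 0.655 times (0.450 to 0.958). Btla in follicular B-like cells was above 1 in each of the 10 clusters, from 1.06 to 1.89, and stayed inside the fold for the class.

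Other Treg-like cells had more of 3 receptors after anti-CTLA-4. Pdcd1 was 94.6 against 62.3 CPM, 1.52 times (1.14 to 2.03). Lag3 was 79.2 against 47.0, 1.69 times (1.22 to 2.36), and Cd226 97.1 against 57.2, 1.70 times (1.27 to 2.29). Tigit in these cells was 162 against 174. Lag3 in effector Treg-like cells, too few for the rule, was 70.7 against 213 CPM, and in all Treg-like cells it was 1.19 times, inside the fold. The isotype library was the lowest of the 5 for each of Pdcd1, Lag3 and Cd226 in this class. Cxcl10, an interferon gamma target chosen here after its value was seen, was 117 against 41.0 CPM in the same cells. Of the 57 pairs tested for interferon genes that induce PD-L1, over all classes compared, 4 were higher and 2 lower. That is 10.5%, against 10% of all pairs.

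Activated CD4-like cells went the other way for 2 of them. Lag3 was 94.0 against 179 CPM, 0.527 times (0.382 to 0.721), with a UMI in 24.6% and 32.6% of cells. Pdcd1 was 69.5 against 121, 0.573 times (0.391 to 0.833), but was 0.969 without doublet removal and 0.874 with a pair of unnamed CD4 clusters added, so this ratio rests on which cells are in the class. Pdcd1lg2 was 73.6 against 41.6 CPM, 1.77 times (1.07 to 2.99). Within the Penk-led cluster, Pdcd1 was 108 against 244 CPM and Lag3 288 against 421, from 36 and 33 cells, too few for the rule. Proliferating T-like cells had lower Lag3, at 0.476 times (0.284 to 0.778), and lower Pdcd1, at 0.619 times (0.416 to 0.912). Their mix differed too, with Cd8a at 215 against 75.2 CPM and the B cell gene Cd79a at 71.3 against 136, and the part of this mix was not tested. In naive cells, at levels below 5 CPM, Tigit was 1.62 times in CD4-like cells, and Pdcd1lg2 was 2.02 times and Lag3 0.263 times in CD8-like cells.

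**Figure D4:**
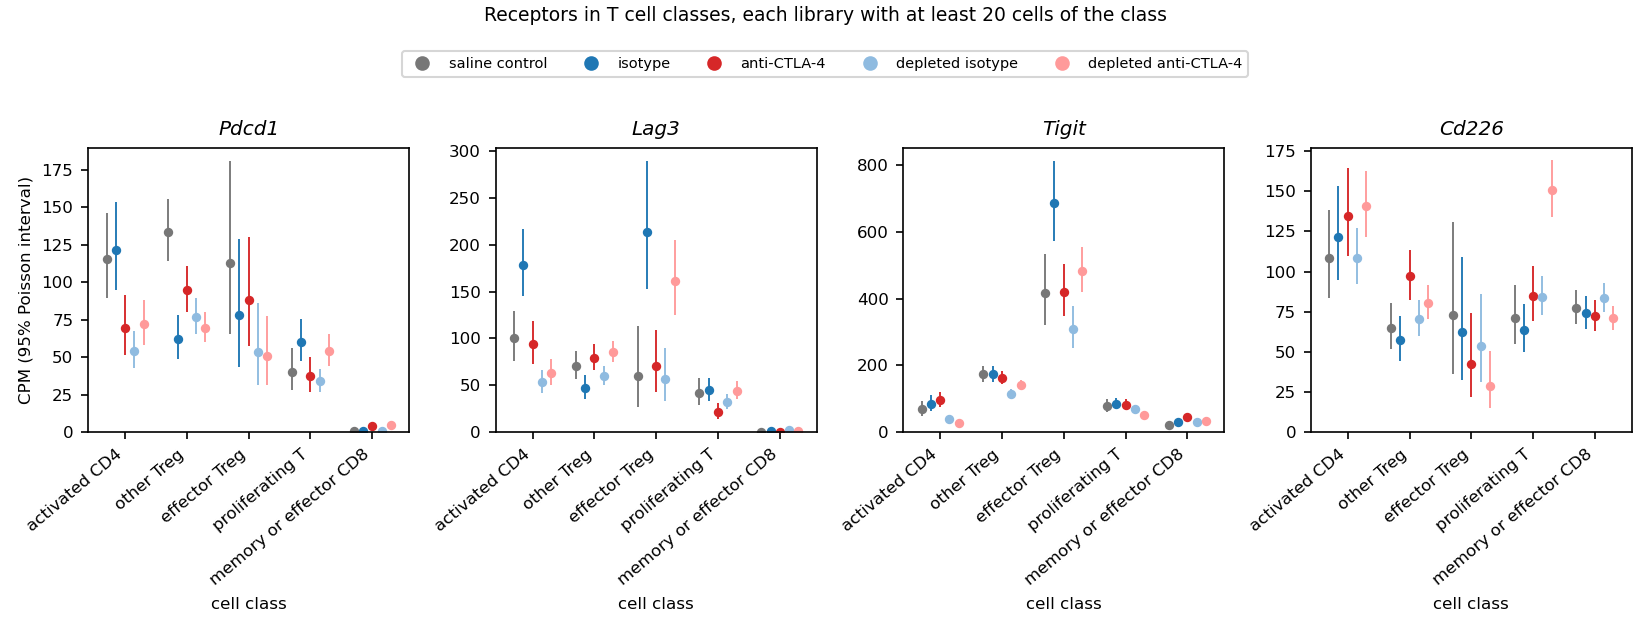
CPM of Pdcd1, Lag3, Tigit and Cd226 in 5 T cell classes, each library with at least 20 cells of the class (colours), with 95% Poisson intervals. The isotype library is highest for Lag3 in activated CD4-like cells, at 179 CPM, and lowest for Pdcd1 in other Treg-like cells, at 62.3. Tigit in activated CD4-like cells is below 40 CPM in the 2 B-depleted libraries.

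B cell depletion under isotype went with lower Lag3, Pdcd1 and Tigit in activated CD4-like cells. Of 46 pairs 2 were higher and 7 lower, against 10.2% of all pairs (6.31% higher, 3.94% lower). At 100 UMIs none was higher and 6 were lower of 34, against 4.16% (2.69% and 1.47%). In activated CD4-like cells Lag3 was 53.3 against 179 CPM, 0.299 times (0.220 to 0.405), with a UMI in 19.3% and 32.6% of cells. Pdcd1 there was 54.0 against 121, 0.445 times (0.319 to 0.623), and Tigit 38.3 against 84.9, 0.451 times (0.302 to 0.675), or 0.237 times without doublet removal. In this class a cluster led by Ift80 had 50 of 192 cells in the B-depleted isotype and 11 of 92 in the isotype library. It held 26.7 CPM of Lag3, 22.1 of Pdcd1 and 3.68 of Tigit. The cluster with most Tigit, 221 CPM, had 26 and 11 cells, and the part of this mix was not tested. The Penk-led cluster, with 15.5 CPM of Tigit, made up 19.8% of this class in the B-depleted isotype and 35.9% in the isotype library. Penk itself was 59.3, 771, 177, 158 and 80.2 CPM in the class in library order, so the isotype library stood apart, and its part in these ratios was not tested. That cluster had 38 and 33 cells in these libraries, too few for the rule. Inside it Lag3 was 0.354 times (0.231 to 0.531) and Pdcd1 0.612 times (0.384 to 0.966). Cd226 and Btla in the cluster were 0.972 and 0.909 times, so the lower level was not shared by every receptor of these cells. Cd274 in the cluster was 3.32 times (2.03 to 5.64), at 353 against 107 CPM.

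Other Treg-like cells had 113 against 174 CPM of Tigit, 0.651 times (0.539 to 0.787), and 76.9 against 62.3 of Pdcd1. Proliferating T-like cells had 0.562 times the Pdcd1 and 0.501 times the Pdcd1lg2. At few UMIs, Pdcd1 was 1.62 times in naive CD4-like, Lag3 0.459 times in naive CD8-like and Pdcd1lg2 2.42 times in resting Treg-like cells. Of the transcription factors listed for checkpoint expression, Nr4a1, an early gene of antigen receptor signalling, was 183 against 302 CPM in activated CD4-like cells and Irf4 56.7 against 88.4, both named after their values were seen. Of the 12 such factors tested in that class 1 was higher and 2 were lower.

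Under anti-CTLA-4, depletion went with lower Tigit in activated CD4-like cells. Of 48 pairs 5 were higher and 4 lower, against 8.56% of all pairs (4.58% higher, 3.98% lower). At 100 UMIs 4 were higher and 3 lower of 35, against 2.57% (1.37% and 1.2%). Tigit in activated CD4-like cells was 27.0 against 95.4 CPM, 0.283 times (0.184 to 0.429), and 0.5002 times without doublet removal. Naive CD4-like cells had 3.12 against 3.11 CPM, and Tfh-like cells, too few for the rule, 955 against 502. The activated CD4-like cluster with most Tigit, 221 CPM, had 22 of 126 class cells under anti-CTLA-4 and 17 of 192 after depletion. The next, at 106 CPM, had 14 and 23 cells, and the part of this mix was not tested. In naive CD8-like cells Tigit was 0.612 times (0.463 to 0.809), at 5.62 against 9.18 CPM. Pdcd1 and Lag3 in activated CD4-like cells, which were lower under isotype, were 72.0 against 69.5 and 63.0 against 94.0 CPM here. Btla was 1.60 times (1.23 to 2.12) in memory or effector CD8-like cells. In proliferating T-like cells Lag3 was 2.08 times, Btla 2.17 times, Cd226 1.78 times and Tigit 0.646 times, beside Cd79a at 0.531 against 71.3 CPM and Cd8a at 145 against 215. Pdcd1lg2 was 0.622 times in naive CD8-like cells and higher in naive CD4-like cells, just at the fold. Leaving out cells with a marker of another lineage took the proliferating T-like class below 50 cells and moved Pdcd1lg2 in naive CD8-like cells to 0.667 times, just inside the fold, and the count was then 4.

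Between the B-depleted libraries, effector Treg-like cells had more Lag3 and Tigit under anti-CTLA-4 than under isotype. Of 58 pairs 8 were higher and 2 lower, against 7.56% of all pairs (4.1% higher, 3.46% lower). At 100 UMIs 6 were higher and none lower of 39, against 1.79% (1.1% and 0.687%). Lag3 in effector Treg-like cells was 162 against 57.0 CPM, 2.84 times (1.67 to 5.07), from 62 and 53 cells. Tigit was 485 against 310, 1.56 times (1.22 to 2.01). With B cells present the same class was too small for the rule, and its Lag3 was 70.7 CPM under anti-CTLA-4 and 213 under isotype, from 45 and 28 cells. Resting Treg-like cells had 110 against 55.8 CPM of Cd274, 1.964 times (1.42 to 2.75). Pdcd1lg2 in activated CD4-like cells was 61.5 against 39.6, 1.55 times (1.09 to 2.21), beside 1.77 times with B cells. Proliferating T-like cells had 1.79 times the Cd226, 1.76 times the Btla and 1.60 times the Pdcd1, and Cd226 was 1.45 times without doublet removal. Pdcd1lg2 in resting Treg-like cells was 0.630 times, Btla in effector Treg-like cells 1.52 times and Lag3 in naive CD8-like cells 0.580 times, each with an interval that included 1.

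Related genes were counted in the same classes and comparisons. Of 19 other inhibitory receptors, the share of tested gene and class pairs past the fold was 7.69% (anti-CTLA-4 over isotype) to 23.1% (B-depleted isotype over isotype, 8 higher and 7 lower of 65). Of 12 signalling partners, such as the phosphatase gene Ptpn6, it was 1.19% to 6.73%. Of 8 interferon genes that induce PD-L1 it was 6.90% to 14.9%. Of 14 other ligands it was 10.6% to 22.2%, and of 14 transcription factors of checkpoint expression 10.9% to 15.9%. Of all gene and class pairs 7.56% to 10.2% passed the fold, as given above. In other Treg-like cells Cd200, a ligand, was 103 against 61.2 CPM in the B-depleted pair of libraries, 1.69 times (1.37 to 2.08), and Lgals9, the ligand of TIM-3, was 167 against 119 with B cells, inside the fold.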

How the data were processed

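Single-cell 5' V2 10x libraries of FACS-sorted live immune cells were analysed, per the labels' protocols, 1 per group. The authors deposited raw UMI counts for 32285 genes. The file headers name Cell Ranger 7.0.1, and the submitters' processing notes name bcl2fastq 2.20.0 and mm10. The 3 B cell receptor libraries were not used here.

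Barcodes with at least 500 genes and at most 10% mitochondrial UMIs were kept. The highest Scrublet scores, 0.8% per 1000 barcodes, were removed as doublets, since the automatic threshold marked none in the depleted libraries. Cells were clustered with scanpy 1.11.5 and leidenalg 0.10.2 (2000 variable genes without the 9 members, receptor segments and mitochondrial genes, 30 components, 15 neighbours, resolution 1) and clustered again within lineages. A pair of CD4 clusters with more markers of another class among their leading genes stayed unnamed. UMIs were summed per class and library. CPM has exact Poisson and ratios exact conditional binomial 95% intervals, which cover counting error only, and a level of 0 allows up to 3 counts. Shares were also taken after thinning to 3000 UMIs, leaving out shallower cells (2851 of the follicular B-like). The ratio was run on simulated Poisson counts, which have only the counting error that its interval assumes. They leave out UMIs gathered in few cells, so the run cannot show how the interval does there. Related genes were named by most UMIs, up to 3 per list and comparison. The members and lists were chosen with earlier results of these data known.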

Additional observations from a re-analysis of the deposited data

Results flagged for a closer look

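The anti-CTLA-4 ratio of Pdcd1 in proliferating T-like cells was 0.619 with B cells and 1.60 after depletion, opposite directions that were both past the fold. The ratio of the 2 ratios was 2.58, with a counting interval of 1.60 to 4.16. Each arm is 1 library, and the difference was not tested. Lag3 and Btla in the same cells also gave ratios of ratios above 2, at 2.89 (1.63 to 5.10) and 2.35 (1.58 to 3.498), with their anti-CTLA-4 ratio below 1 with B cells and above 1 without. Pdcd1lg2 there gave 2.16 (1.24 to 3.77), from ratios of 0.691 and 1.495. Among proliferating T-like cells the isotype library had 410 CPM of Mki67, a gene of dividing cells, against 622 to 805 in the others, 75.2 of Cd8a against 145 to 277, and 136 of Cd79a against 0.531 to 88.6, and their part was not tested. Pdcd1 and Lag3 in activated CD4-like cells gave 2.33 (1.46 to 3.72) and 2.24 (1.45 to 3.46), and Pdcd1 in other Treg-like cells 0.598 (0.423 to 0.845). The isotype library is the denominator of each of these with B cells.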

How the results depend on the processing

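No paired analysis was possible because each group is 1 library. Of 70 ratios past the fold, broad classes included, 484 of 497 values under other settings stayed inside the interval, 12 moved out of it and 1 reversed: Lag3 in all CD8 cells, anti-CTLA-4 over isotype, was 1.26 with gates on single marker genes. With those gates 16 of 23 ratios stayed inside the interval, 6 moved out and 1 reversed, while by UMIs per cell 70 of 70 stayed inside. Those gates give only 4 classes and so no count. A ratio that a setting left without its class or without enough cells or UMIs is not among the 497 values. Of the 70 ratios, 55 could be compared at resolution 2, 62 without cells with another lineage's marker and 66 without doublet removal. At a fold of 2 the counts were 3, 3, 5, 3 and 1 in the order of the comparisons. At 100 UMIs the first, second and last comparison gave 3, 7 and 6. Leaving out cells with another lineage's marker gave 4 for depletion under anti-CTLA-4. By UMIs per cell the highest class of Cd274, Pdcd1lg2 and Cd226 fell to rank 2, behind plasma cell-like cells for Cd274 and proliferating T-like cells for the others, and at resolution 2 Pdcd1lg2 fell to rank 2 behind Tfh-like cells. All 45 shares were lower after thinning. Adding the unnamed CD4 clusters, and leaving out the isotype library from class medians, were chosen after seeing the data. The class of highest level stayed the same without the isotype library. In Tfh-like, effector Treg-like, cDC1-like, cDC2-like and migratory DC-like cells that library had too few cells to enter the median. This setting could therefore not change the levels of those classes. Havcr2 had too few UMIs for any ratio.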
